A study of Rattus norvegicus with 9 samples.

Results

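Femora of rats given the herb Desertliving Cistanche were compared with femora of ovariectomized rats, gene by gene. The members were the genes whose mean reached 1 FPKM (fragments per kilobase, scaled for depth) over the 9 libraries of the study. They numbered 13886 of the 32623 gene rows of the deposited table, and the comparison used 6 of the 9 libraries, 3 in each group. All animals were labelled as SD (Sprague-Dawley) rats of WT genotype, the tissue as femur and the material as poly(A) RNA. The groups are labelled as normal rats, ovariectomized rats and Desertliving Cistanche treatment. The labels of the treated libraries do not themselves name ovariectomy, which the series title does, and the sources used here give no age, dose, route or duration. The normal rats, called controls here, entered the FPKM filter, the depth normalization and the estimate of the spread, but not the contrast. The labels do not say whether the 3 libraries of a group came from separate animals, and p-values then cover only the spread among these samples, possibly a technical one.

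Cistanche is a parasitic desert plant whose stem is used in traditional Chinese medicine. Removal of the ovaries withdraws oestrogen, which normally restrains the osteoclasts that resorb bone. Osteoblasts lay down the collagenous matrix, osteocytes within it secrete the Wnt inhibitor sclerostin, and the ligand RANKL with its decoy receptor osteoprotegerin sets how many osteoclasts form. A whole femur also holds blood-forming marrow, fat, vessels, cartilage and attached muscle and tendon, and its RNA is a mixture of all of them.

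The 6 libraries held 54992823 to 64024987 counts. Defining markers of bone were present, with Col1a1 (type I collagen) at 174 to 1060 FPKM and Ctsk (cathepsin K of osteoclasts) at 127 to 352 FPKM, as were those of marrow. Markers of skeletal muscle were present as well, Acta1 (skeletal actin) ranging from 161 to 1520 FPKM, while the cartilage gene Matn1 and the Schwann cell gene Sox10 were at or near 0. Genes of a list of 23 muscle genes took 0.195%, 0.476% and 0.983% of all counts in ovariectomized replicates 1, 2 and 3 and 0.222%, 0.14% and 0.309% in treated replicates 1, 2 and 3 (2-sided exact permutation p = 0.3, where 3 against 3 cannot go below 0.1). Ovariectomized replicate 3 thus held the most muscle RNA, and ovariectomized replicate 1 stood apart in another way, by its interferon-induced genes, described below. On the first principal component, which carried 29.8% of the variance of the 6 libraries, ovariectomized replicate 1 lay at -24.13, beside the treated libraries at -25.53 to -12.22, and ovariectomized replicates 2 and 3 lay at 29.86 and 49.14.

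The comparison asks which genes differ between the femora labelled as treated and those labelled as ovariectomized. Differences were small: 94.1% of the 13886 genes had estimates within 1.5-fold, and the median log2 fold change (treated minus ovariectomized) was -0.0042, with 6798 genes higher and 7087 lower. By edgeR's quasi-likelihood test with Benjamini-Hochberg adjustment 0 genes passed an adjusted p of 0.05 (0% of those tested), the smallest adjusted p being 0.581. At an unadjusted p under 0.05 there were 294 higher genes (2.12%) and 428 lower genes (3.08%), 722 together, where 5% of 13886 genes is 694.3. Adding a 2-fold change left 37 higher (0.266%) and 66 lower (0.475%) genes. All 3 treated values lay above all 3 ovariectomized values for 798 genes (5.75%) and below them for 920 genes (6.63%). DESeq2, run as an alternative on the same counts, passed 38 genes, 10 of them higher (0.072%) and 28 lower (0.202%), and each of these 38 also had an unadjusted edgeR p under 0.05. The split by direction depended on the scale: limma on log2(FPKM + 1) gave 529 higher and 260 lower genes at an unadjusted p under 0.05 (0 adjusted), and on deposited FPKM 1392 genes lay wholly higher and 546 wholly lower. Counts also moved with single libraries. Without ovariectomized replicate 3 the edgeR counts at an unadjusted p under 0.05 were 173 higher and 283 lower. They were 193 and 251 when treated replicate 1 was left out, and without ovariectomized replicate 1 the 2-fold counts were 65 and 166.

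**Figure D1:**
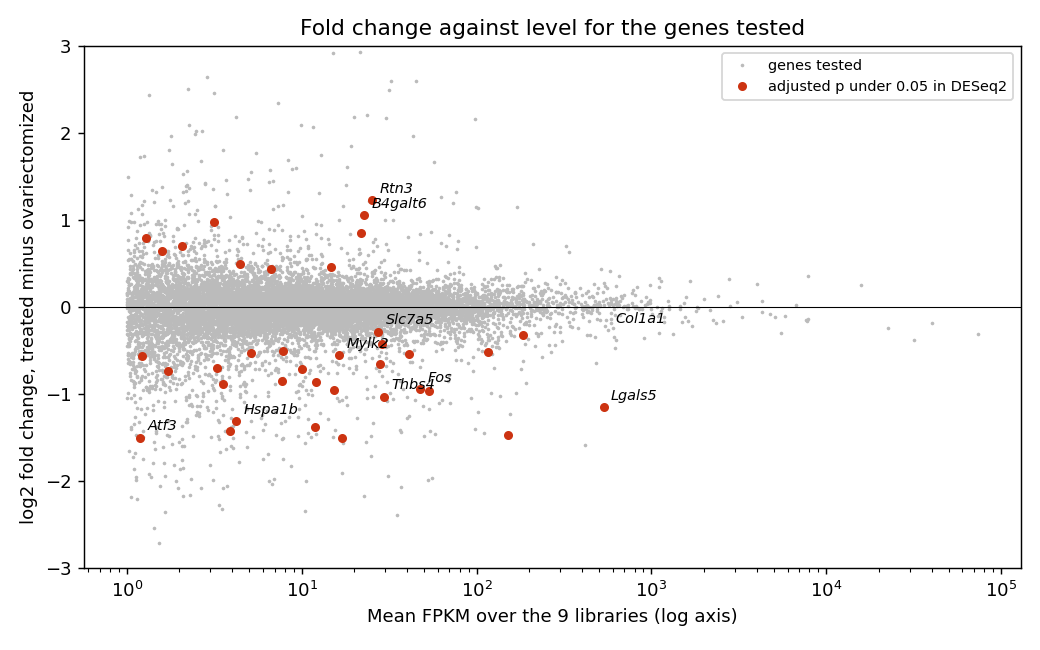
Each point is a gene tested, by its mean FPKM over the 9 libraries (log axis) and its edgeR log2 fold change, treated minus ovariectomized; red marks genes with an adjusted p under 0.05 in DESeq2. Of the 38 such genes 37 lie within the axis, most of them below 0, and 19 genes with a log2 fold change past 3 in either direction are not drawn.

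Among genes with higher levels in treated femora, Rtn3 and B4galt6 had the smallest DESeq2 adjusted p once placeholder symbols were left out. Rtn3 (chromosome 1, 222677365 to 222734241 in the table's coordinates, for which the sources used here give no genome build) encodes a reticulon that shapes the endoplasmic reticulum. Its levels were 79.5, 75.1 and 72.7 CPM (counts scaled for library size with TMM factors) in ovariectomized replicates 1, 2 and 3 and 189, 167 and 179 CPM in treated replicates 1, 2 and 3. The 2 groups lay more than 2-fold apart with little spread, a log2 fold change of 1.23 ± 0.23 (SE), with an adjusted p of 2.60e-04 in DESeq2 and 0.713 in edgeR. Controls held both levels, with 79.7, 166 and 154 CPM in replicates 1, 2 and 3. The edgeR call turned on that control: the adjusted p was 0.00425 without control replicate 1 and 0.0203 with the 6 libraries alone, and over the edgeR and limma alternatives it ran from 0.00425 to 1. A gene on the opposite strand, RGD1560108, overlaps Rtn3 with fewer counts in every library.

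B4galt6 (chromosome 18, 15462913 to 15525579), the enzyme that makes lactosylceramide, had 61.7, 79.4 and 116 CPM in the ovariectomized libraries and 192, 170.1 and 172 CPM in the treated ones. All treated values were above all ovariectomized ones, and the log2 fold change was 1.06 ± 0.23 (adjusted p = 0.00454 in DESeq2, 0.454 to 0.999 over the other alternatives); controls were at 207, 189 and 138 CPM. Azin1 (chromosome 7, 77345646 to 77372398), the antizyme inhibitor that keeps polyamine synthesis active, was at 99, 105 and 103 CPM in the ovariectomized libraries and 156, 178 and 173 CPM in the treated ones, a log2 fold change of 0.73 ± 0.19. Its controls again held both levels, 161, 96 and 168 CPM, and without control replicate 2 it passed edgeR with an adjusted p of 0.0483 (from 0.0483 to 1 over the edgeR and limma alternatives). Azin1 did not pass DESeq2 (adjusted p = 0.0544), while some genes at lower levels did. Slc16a12, a transporter of creatine, had 3.35, 2.84 and 4.1 CPM in the ovariectomized libraries and 6.54, 5.7 and 5.68 CPM in the treated ones (0.80 ± 0.18), and Gpr65, a receptor that senses acid outside the cell, had 8.99, 9.32 and 8.46 CPM in the ovariectomized libraries and 11.5, 12.1 and 12.6 CPM in the treated ones (0.44 ± 0.11). Fmo5, a flavin monooxygenase, was at 0.71 ± 0.15, Pcp4, a small calmodulin-binding protein, at 0.97 ± 0.22 and Fam115c at 0.65 ± 0.16. The groups of these 5 genes did not overlap. Of genes named for groups that did not overlap without passing in DESeq2, the estimates were 0.65 ± 0.22 for F2rl2, a thrombin receptor of platelets, 0.63 ± 0.22 for Ccr3, the eotaxin receptor of eosinophils and basophils, 0.70 ± 0.26 for the glucose transporter Slc2a3, 0.60 ± 0.21 for Tmx3, a thioredoxin-like protein of the endoplasmic reticulum, and 0.62 ± 0.19 for the chromatin remodeller Chd1l. Sowaha had the widest estimate of them, 2.02 ± 0.67, and Lratd2 was at 0.70 ± 0.25.

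Among genes with lower levels in treated femora, Lgals5 (chromosome 10, 66225995 to 66229311) is a galectin of rat reticulocytes and red cells. It had 458, 629.9 and 603 CPM in the ovariectomized libraries and 301, 182 and 278 CPM in the treated ones and a mean over the 9 libraries of 534 FPKM, the highest of the 38 DESeq2 calls. The log2 fold change was -1.15 ± 0.23 (adjusted p = 0.00109 in DESeq2, 0.625 to 1 over the other alternatives). Nos2 lies on the opposite strand of Lgals5; it had 3404 counts in ovariectomized replicate 1, where Lgals5 had 29055. Cntnap1 (chromosome 10, 89089646 to 89103614), an adhesion protein best known from nerve fibres at the node of Ranvier, had 22.6, 29.4 and 30.1 CPM in the ovariectomized libraries and 12.3, 16.6 and 15.6 CPM in the treated ones, a log2 fold change of -0.88 ± 0.15 (adjusted p = 1.43e-04 in DESeq2, 0.379 to 0.999 otherwise). Banp (chromosome 19, 54766589 to 54840569), a DNA-binding protein of the nuclear matrix, was at 24.2, 26.9 and 26.5 CPM in the ovariectomized libraries and 15.1, 15.4 and 16.8 CPM in the treated ones, with -0.71 ± 0.13 (adjusted p = 6.54e-04 in DESeq2, 0.285 to 1 otherwise). The groups of these 3 genes did not overlap.

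Il1r1 (chromosome 9, 46962288 to 47036670), the receptor through which interleukin-1 signals, had 16.9, 12.1 and 14.2 CPM in the ovariectomized libraries and 9.06, 8.21 and 9.29 CPM in the treated ones, a log2 fold change of -0.70 ± 0.14 (adjusted p = 0.0097 in DESeq2, 0.515 to 1 otherwise). Cbx3 (chromosome 4, 81244469 to 81257897), a heterochromatin protein, showed 2 separate levels, 128, 124 and 119 CPM in the ovariectomized libraries and 58.2, 66.2 and 66.5 CPM in the treated ones, with -0.96 ± 0.23. Control replicate 2 shared the level of the treated libraries (125, 64.8 and 128 CPM in controls), and without it Cbx3 passed edgeR at an adjusted p of 0.0232. Mylk2, the myosin light chain kinase of skeletal muscle, had 90.0, 98.4 and 90.2 CPM in the ovariectomized libraries and 71, 56.6 and 63 CPM in the treated ones (-0.55 ± 0.09). Treated replicate 2 was the lowest library both for Mylk2 and for the muscle share of counts. Ovariectomized replicates 1 and 3, the lowest and the highest of their group by that share, were at 90.0 and 90.2 CPM, and with the muscle score of the libraries in the fit the log2 fold change was -0.51. Slc29a2, a nucleoside transporter, was at -0.84 ± 0.21. Other DESeq2 calls, named after their values were seen, were the ceramidase Acer2 at -0.74 ± 0.16, the myosin phosphatase subunit Ppp1r12b at -0.52 ± 0.10, the secreted protein Angptl2 at -0.51 ± 0.11, the dynein light chain Dynll1 at -0.32 ± 0.07, the large amino acid transporter Slc7a5 at -0.28 ± 0.06 and the glycine transporter Slc6a9 at -0.42 ± 0.09. Slc7a5 shows how small a called difference could be, with 103, 109 and 108 CPM in the ovariectomized libraries and 89.8, 89.7 and 83.4 CPM in the treated ones.

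**Figure D2:**
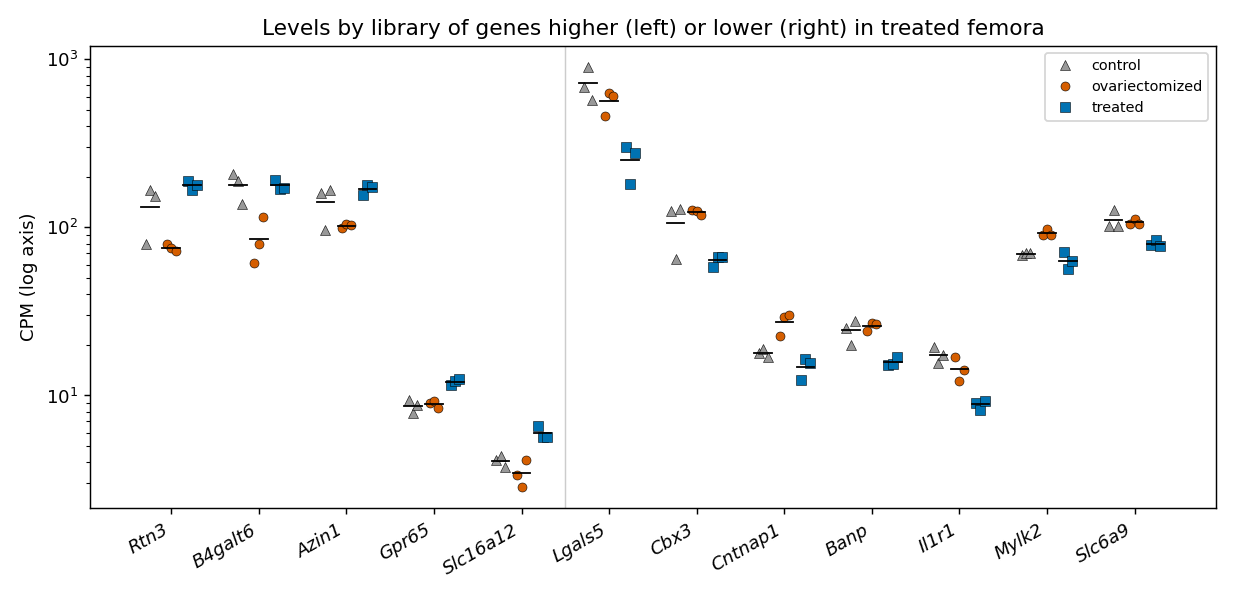
CPM (log axis) of 12 genes by library, with the mean of each group of 3 as a bar; 5 genes with higher levels in treated femora stand left of the grey line and 7 with lower levels right of it. Treated and ovariectomized points do not overlap for any of the 12, and for Rtn3, Azin1 and Cbx3 the control points fall at both levels.

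Several calls came from genes with a second row of the same product, by its description, in the table, and for 3 genes summing the rows left no difference. Pdcd5, a protein tied to cell death, had 11.8, 15.6 and 13.8 CPM in the ovariectomized libraries and 8.09, 5.93 and 7.26 CPM in the treated ones on its own row (-0.95 ± 0.16, adjusted p = 1.43e-04 in DESeq2). The second row, NEWGENE_1310561, had 17.3, 15.3 and 17.4 CPM and 19.7, 22.5 and 22.3 CPM in the same order, higher where the first was lower. Summed before the fit, an alternative chosen after seeing the data, Pdcd5 had a log2 fold change of -0.09 and overlapping groups. Rpl38, a ribosomal protein, was at -1.47 ± 0.36 on its own row and at 0.04 with 4 other rows of the same product added. Pfkfb4, an enzyme that sets the level of a glycolytic regulator, was at -0.63 ± 0.23, and the row LOC100911725 of the same product was 1 of the 10 higher DESeq2 calls; their sum was at 0.09. Cpne1, a calcium-dependent membrane-binding protein, had the smallest DESeq2 adjusted p of all, 2.63e-09, from 0 counts in ovariectomized replicate 2 and in all 3 treated libraries against 10495 and 8451 counts in ovariectomized replicates 1 and 3. Control replicate 2 also had 0 counts of Cpne1, and with its second row added the groups overlapped, so no fold change is given for it.

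**Figure D3:**
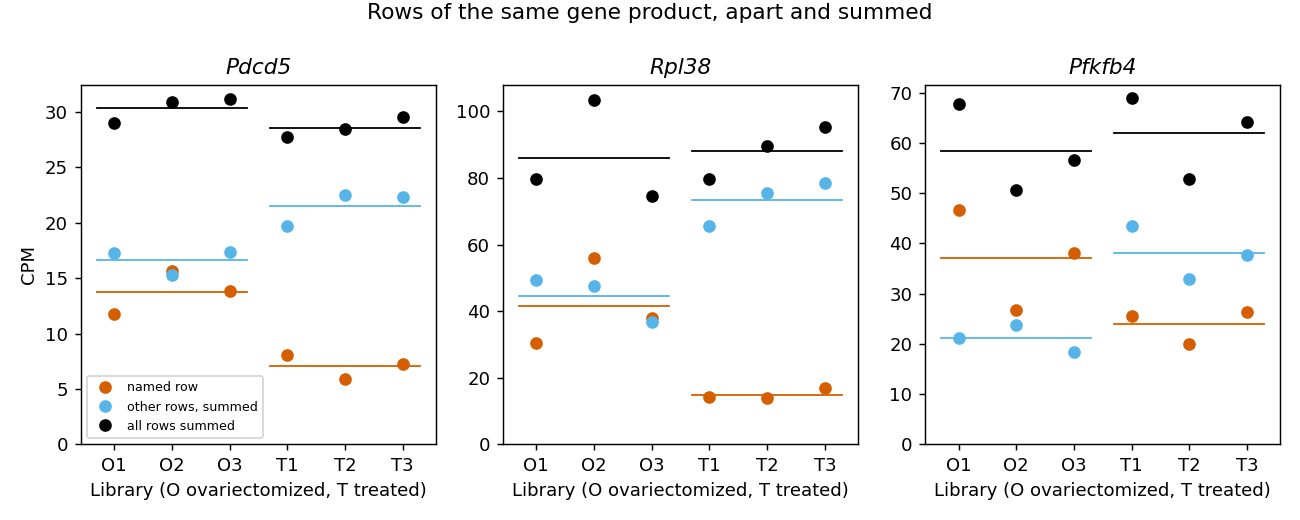
CPM by library of the named row (orange), the other rows of the same product (blue) and their sum (black) for Pdcd5, Rpl38 and Pfkfb4; lines are means of the 3 libraries of a group. The named row is lower and the other rows are higher in the treated libraries for all 3 genes, and the sums of the groups overlap.

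Genes switched on quickly by stimulation or stress lay on the lower side in treated femora. Immediate early genes encode transcription factors that need no new protein for their induction, among them the AP-1 members Fos, Fosb and Jun. Of the 26 measured, 4 were higher and 22 lower (median log2 fold change -0.19). An unadjusted edgeR p under 0.05 was found for 7, all lower, and 4 passed DESeq2 (Fos, Fosb, Atf3 and Egr1). Of all genes tested, 3.08% were lower at that edgeR p and 0.202% were lower DESeq2 calls. Fos had 118, 80.5 and 78.3 CPM in the ovariectomized libraries and 46, 52 and 45.7 CPM in the treated ones (-0.94 ± 0.15). Fosb had 89.3, 48.1 and 47.9 CPM in the ovariectomized libraries and 26.1, 22.6 and 22.4 CPM in the treated ones (-1.38 ± 0.25). Ovariectomized replicate 1 was the highest library for both. Atf3, induced by many stresses, had 5.95, 4.79 and 6.83 CPM in the ovariectomized libraries and 2.87, 1.88 and 1.47 CPM in the treated ones (-1.50 ± 0.28) and was lowest in ovariectomized replicate 2 of its group. Egr1 had 116, 77 and 92.5 CPM in the ovariectomized libraries and 65.7, 62.8 and 52.7 CPM in the treated ones (-0.65 ± 0.14). The mean level of the list, in log2(CPM + 1) relative to the 6 libraries, was 0.26, 0.10 and 0.06 in the ovariectomized and -0.11, -0.10 and -0.20 in the treated libraries, without overlap. The difference was not shared evenly: Myc, Klf6 and the phosphatase Dusp6, picked with their values in view, had estimates of 0.06 ± 0.12, -0.12 ± 0.16 and -0.05 ± 0.11. Without ovariectomized replicate 1 the median of the list was -0.12.

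Many heat shock genes encode chaperones whose transcription the factor HSF1 drives. Of 23 measured, 2 were higher and 21 lower (median -0.14, -0.16 to -0.11 with any library left out). With the muscle score of the libraries in the fit the median was -0.10. An unadjusted p under 0.05 was found for 6, all lower, against 3.08% of all genes tested. Wholly lower lay 8, against 6.63% of all genes. Hspa8, the abundant constitutive member of the family, had 558, 597 and 596 CPM in the ovariectomized libraries and 362, 403 and 464 CPM in the treated ones, a log2 fold change of -0.51 ± 0.19. Its co-chaperone Bag3 had 11.6, 13.8 and 24.5 CPM in the ovariectomized libraries and 9.15, 7.58 and 10.4 CPM in the treated ones (-0.88 ± 0.28). Bag3 was highest in ovariectomized replicate 3. Its log2 fold change was -0.49 without that library and -0.46 with the muscle score in the fit. Hspb8 had 5.45, 12.3 and 24.1 CPM in the ovariectomized libraries and 4.86, 3.26 and 5.46 CPM in the treated ones (-1.62 ± 0.60) and was highest in ovariectomized replicate 3, the library with the most muscle RNA; with the muscle score of the libraries in the fit its log2 fold change was -0.40. Hspa1b was the only member to pass DESeq2, where lower calls were 0.202% of all genes tested. It had 15.1, 17.5 and 19.1 CPM in the ovariectomized libraries and 8.7, 6.89 and 5.32 CPM in the treated ones (-1.31 ± 0.22). Rows of the RT1-CE family overlap it on the same strand. The cytosolic chaperone Hsp90aa1, chosen after its value was seen, was at -0.09 ± 0.11. Ppp1r15a, which returns the initiation factor eIF2 to activity after stress, belongs to the list of the unfolded protein response. It had 114, 126 and 120.5 CPM in the ovariectomized libraries and 73.2, 85.4 and 89.5 CPM in the treated ones, wholly lower at -0.54 ± 0.09 (adjusted p = 3.27e-04 in DESeq2, 0.515 to 0.999 otherwise). That list, Ppp1r15a included, had 9 of 27 higher and 18 lower (median -0.09). Of its genes 5 lay wholly lower, against 6.63% of all genes tested, and 0 wholly higher. Chac1, a glutathione-degrading enzyme downstream of Atf4, was at -0.82 ± 0.29, the chaperone Hspa5 at -0.23 ± 0.12 and Asns at -0.17 ± 0.09. Hspa5 is also in the heat shock list.

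The promoters of 4 genes of these paragraphs and of the clock gene Ciart, treated next, are shown as examples that hold matches to the motifs searched, and were picked for those matches. They are RefSeq sequences of build GRCr8, 250 bases before to 50 bases after the annotated start, 5′ to 3′ on the gene's strand: Hspa8 (chr8:50080264-50080563, plus strand), Bag3 (chr1:192533210-192533509, plus strand), Egr1 (chr18:26736828-26737127, plus strand), Ppp1r15a (chr1:105139547-105139846, minus strand) and Ciart (chr2:186112197-186112496, minus strand). Capitals mark matches on either strand to GAANNTTC (a pair of heat shock units), TGACGTCA (the cyclic AMP response element, CRE), TGANTCA (AP-1), CACGTG (E-box), TTATGTAA (D-box), TATAAA and the CArG box of serum response factor.
Hspa8: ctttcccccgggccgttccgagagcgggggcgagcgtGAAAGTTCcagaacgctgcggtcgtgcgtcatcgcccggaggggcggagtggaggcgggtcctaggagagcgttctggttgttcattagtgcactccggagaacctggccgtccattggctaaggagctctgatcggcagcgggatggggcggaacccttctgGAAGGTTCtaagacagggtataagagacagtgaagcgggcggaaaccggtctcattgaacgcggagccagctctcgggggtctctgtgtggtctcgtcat
Bag3: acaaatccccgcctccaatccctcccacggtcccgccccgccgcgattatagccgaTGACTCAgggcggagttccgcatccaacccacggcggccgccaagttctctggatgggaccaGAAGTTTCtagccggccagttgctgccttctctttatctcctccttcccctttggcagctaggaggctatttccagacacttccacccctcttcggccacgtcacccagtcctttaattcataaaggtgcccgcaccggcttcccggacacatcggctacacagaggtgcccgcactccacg
Egr1: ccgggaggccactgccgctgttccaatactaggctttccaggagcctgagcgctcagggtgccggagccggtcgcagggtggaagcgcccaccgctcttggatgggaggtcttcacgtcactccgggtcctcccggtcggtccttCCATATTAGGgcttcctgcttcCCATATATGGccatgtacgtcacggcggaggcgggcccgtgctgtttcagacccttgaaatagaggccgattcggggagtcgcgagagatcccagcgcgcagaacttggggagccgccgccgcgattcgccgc
Ppp1r15a: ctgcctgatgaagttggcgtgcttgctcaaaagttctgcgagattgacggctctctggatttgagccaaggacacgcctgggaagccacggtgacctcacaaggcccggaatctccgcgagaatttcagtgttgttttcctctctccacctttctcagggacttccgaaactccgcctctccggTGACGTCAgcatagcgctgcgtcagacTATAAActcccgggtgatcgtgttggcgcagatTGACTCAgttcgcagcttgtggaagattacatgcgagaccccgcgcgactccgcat
Ciart: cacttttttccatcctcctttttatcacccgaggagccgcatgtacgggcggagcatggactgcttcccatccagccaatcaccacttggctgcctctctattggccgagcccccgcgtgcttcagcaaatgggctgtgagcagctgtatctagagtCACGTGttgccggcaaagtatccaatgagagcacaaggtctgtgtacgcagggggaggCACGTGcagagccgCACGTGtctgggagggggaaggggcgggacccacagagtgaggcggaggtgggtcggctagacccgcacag

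The heat shock pair begins 213 and 50 bases before the start in Hspa8 and 132 bases before it in Bag3, whose AP-1 match lies at 194 bases. Egr1 has CArG boxes at 105 and 83 bases, Ppp1r15a a CRE at 66 bases and a TATAAA at 39 bases, and Ciart E-boxes at 93, 35 and 21 bases. Among all 33469 promoters of this length, 8.59% held the heat shock pair, 1.83% the CRE, 7.33% the AP-1 letters, 6.42% the E-box, 1.64% the CArG box, 0.89% the D-box and 14.22% TATAAA. Of the 15 clock genes 13 were matched to a promoter, 3 with an E-box and 1 with a D-box, and Dbp, Nr1d1, Nr1d2 and Per2 had no E-box in the window. Of the 23 heat shock genes 18 were matched to a promoter by symbol or gene identifier, and 10 of the 18 held the heat shock pair. Of the 26 immediate early genes 18 were matched, 5 with a CRE, 5 with an E-box, 4 with a CArG box and 0 with the AP-1 letters. Matches in the window are a description of letters and not of bound factors.

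Clock genes showed the least spread within groups of the lists whose levels did not overlap. The clock turns through the activators Clock and Arntl and their repressors, and its outputs include the PAR-domain factors Dbp and Tef. Of 15 measured, 4 were higher and 11 lower (median -0.24, -0.28 to -0.20 with any library left out). An unadjusted p under 0.05 was found for 6, all lower, against 3.08% of all genes tested. Mean list levels were 0.17, 0.17 and 0.10 in the ovariectomized and -0.18, -0.18 and -0.08 in the treated libraries. Dbp had 29.4, 33.1 and 20.6 CPM in the ovariectomized libraries and 16.4, 15.6 and 13.9 CPM in the treated ones (-0.86 ± 0.17, adjusted p = 0.00364 in DESeq2, 0.229 to 0.999 otherwise). The repressor Nr1d1 had 18.6, 26.6 and 14.5 CPM in the ovariectomized libraries and 6.62, 6.96 and 10.4 CPM in the treated ones (-1.31 ± 0.37) and its relative Nr1d2 33, 31 and 24.5 CPM in the ovariectomized libraries and 20.5, 21.4 and 20.9 CPM in the treated ones (-0.49 ± 0.12); Thra overlaps Nr1d1 on the opposite strand with more counts. Ciart, a repressor of the clock activators, had 2, 2.86 and 2.13 CPM in the ovariectomized libraries and 1.23, 1.35 and 1.72 CPM in the treated ones (-0.70 ± 0.25). All 4 genes lay wholly lower. Of further members chosen after their values were seen, Per2 was at -0.47 ± 0.20 and Tef at -0.37 ± 0.16, while Arntl and Cry1 were at 0.08 ± 0.22 and 0.03 ± 0.24.

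Genes that glucocorticoids induce overlap the clock list in Per1 and the immediate early list in Dusp1. Of 22 measured, 4 were higher and 18 lower (median -0.22). An unadjusted p under 0.05 was found for 5, all lower, against 3.08% of all genes tested. The list held 1 DESeq2 call, where lower calls were 0.202% of all genes tested. That call was Zbtb16, a zinc finger factor strongly induced by glucocorticoids, at 16.4, 8.97 and 24.5 CPM in the ovariectomized libraries and 7.38, 5.46 and 5.74 CPM in the treated ones (-1.43 ± 0.36). Klf9 had 16.1, 10.7 and 16.6 CPM in the ovariectomized libraries and 8.25, 5.96 and 11 CPM in the treated ones, with groups that overlapped (-0.78 ± 0.24). Klf15 had 9.34, 6.93 and 6.08 CPM in the ovariectomized libraries and 4.58, 4.46 and 5.68 CPM in the treated ones (-0.60 ± 0.21), and Fkbp5, the receptor's co-chaperone, differed little but without overlap, 144, 131 and 146 CPM in the ovariectomized libraries and 122, 124 and 127 CPM in the treated ones (-0.18 ± 0.06). The receptor gene itself, Nr3c1, chosen after its value was seen, was at 0.00 ± 0.06. List levels overlapped between groups, 0.25, -0.02 and 0.20 against -0.10, -0.41 and 0.08, treated replicate 3 lying among the ovariectomized libraries. Without ovariectomized replicate 1 the median of the list was -0.14.

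Red cell genes had lower estimates throughout. All 25 measured genes of the erythroid list had lower estimates (median -0.32, -0.42 to -0.27 with any library left out). Of them 12 had an unadjusted p under 0.05, against 3.08% of all genes tested that were lower at that p. Wholly lower lay 17, against 6.63% of all genes, and 0 passed DESeq2. Mean list levels were 0.07, 0.23 and 0.20 in the ovariectomized and -0.28, -0.05 and -0.17 in the treated libraries. Uros, an enzyme of haem synthesis, had 65.3, 69.8 and 63 CPM in the ovariectomized libraries and 45.6, 50.1 and 47.5 CPM in the treated ones (-0.47 ± 0.14). Trim10, needed late in red cell maturation, had 82.6, 88.8 and 75.7 CPM in the ovariectomized libraries and 49.8, 66.9 and 54.5 CPM in the treated ones (-0.53 ± 0.17). The membrane skeleton protein Epb42 had 341, 361 and 342 CPM in the ovariectomized libraries and 224, 278 and 258 CPM in the treated ones (-0.46 ± 0.16), and Gata1, the lineage's master factor, 56.3, 60.5 and 58.7 CPM in the ovariectomized libraries and 47.4, 50.2 and 47.4 CPM in the treated ones (-0.27 ± 0.10). In whole femur fewer cells of a type and less RNA per cell cannot be told apart. With the muscle score of the libraries in the fit the median was -0.20.

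Globin genes followed at a similar size. The 7 measured were all lower (median -0.30), and their share of all counts was 8.55%, 10.1% and 8.41% in the ovariectomized and 6.89%, 8.82% and 7.12% in the treated libraries (2-sided exact permutation p = 0.3). Treated replicate 2 lay among the ovariectomized libraries by that share. Hbq1b, a theta-type globin gene of low abundance, was the 1 DESeq2 call, where lower calls were 0.202% of all genes tested. It had 58.3, 66.4 and 62.6 CPM in the ovariectomized libraries and 39.6, 49.3 and 42.6 CPM in the treated ones (-0.51 ± 0.11). Hba-a1 and Hba-a2, near-identical alpha-globin genes between which counts may be split, were at -0.31 ± 0.18 and -0.38 ± 0.21, and the beta-globin row Hbb-bs at -0.30 ± 0.21. The row LOC100134871 overlaps Hbb-bs on the same strand with more counts in every library. Lgals5 and Slc6a9, both described above and in neither list, are also known from red cell precursors. Cell cycle genes had a median not far from 0 (-0.07), with 6 of 34 higher and 28 lower. Wholly lower lay 5, against 6.63% of all genes tested, and wholly higher 0, against 5.75%. Ccnd2, a cyclin of the entry into the cycle, had 39.7, 42.2 and 42.6 CPM in the ovariectomized libraries and 31.5, 32.3 and 35.3 CPM in the treated ones (-0.33 ± 0.09) and Tyms, which makes thymidylate, 69.9, 90.1 and 65.9 CPM in the ovariectomized libraries and 47.6, 64.5 and 47.8 CPM in the treated ones (-0.50 ± 0.18), whereas Mki67 was at -0.18 ± 0.18.

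Matrix genes of tendon, periosteum and fibrous tissue had lower estimates in treated femora. Proteoglycans and matricellular proteins coat and space collagen fibres: of 19 measured, 1 was higher and 18 lower (median -0.48). An unadjusted p under 0.05 was found for 7, all lower, against 3.08% of all genes tested. Wholly lower lay 7, against 6.63% of all genes. Thbs4, a thrombospondin of tendon and muscle, passed DESeq2 with 106, 114 and 145 CPM in the ovariectomized libraries and 67.5, 67.3 and 44.1 CPM in the treated ones (-1.03 ± 0.26). Fmod, fibromodulin, had 68.2, 92.9 and 96.8 CPM in the ovariectomized libraries and 45.2, 52.4 and 20.5 CPM in the treated ones (-1.13 ± 0.34). Thbs2 had 59.4, 45.5 and 86.2 CPM in the ovariectomized libraries and 36.5, 36 and 25.4 CPM in the treated ones (-0.96 ± 0.31) and decorin, Dcn, 253, 235 and 288 CPM in the ovariectomized libraries and 179.9, 177 and 226 CPM in the treated ones (-0.41 ± 0.13). Treated replicate 3 was the lowest library for Thbs4, Fmod and Thbs2 but the highest treated one for Dcn. Comp, which binds the same fibres in tendon and cartilage, had 134, 136 and 115 CPM in the ovariectomized libraries and 79.2, 86.2 and 61.3 CPM in the treated ones (-0.77 ± 0.21).

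Genes of tendon and periosteum, a list that shares Thbs4 and Fmod with the previous one, gave 2 of 13 higher and 11 lower (median -0.67, -0.97 to -0.51 with any library left out). The Wnt inhibitor Sfrp2 had 18.5, 14.1 and 16.6 CPM in the ovariectomized libraries and 11.1, 12.2 and 11.1 CPM in the treated ones (-0.52 ± 0.17), and Cilp 26.6, 18 and 17.9 CPM in the ovariectomized libraries and 12.1, 17 and 10.1 CPM in the treated ones (-0.67 ± 0.23). The level of the list did not overlap between groups, -0.00, 0.43 and 0.59 against -0.15, -0.26 and -0.62, nor did that of the proteoglycans, 0.16, 0.17 and 0.58 against -0.23, -0.43 and -0.25; for both, ovariectomized replicate 3, the library with the most muscle RNA, was the highest. Without that library the medians were -0.51 and -0.33, and with the muscle score of the libraries in the fit they were -0.62 and -0.31. All 18 measured collagens and cross-linking enzymes were lower (median -0.30), but without ovariectomized replicate 3 their median was -0.10, and with the muscle score it was -0.0584. Plod1, a lysyl hydroxylase, had 38.2, 36.1 and 35.3 CPM in the ovariectomized libraries and 32.3, 29.7 and 30.8 CPM in the treated ones (-0.24 ± 0.07), and Col6a1, of the collagen around cells, 90.4, 78.6 and 115 CPM in the ovariectomized libraries and 62.7, 64.2 and 71.8 CPM in the treated ones (-0.52 ± 0.16).

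Skeletal muscle genes had the lowest median of the lists described, -1.25 over 23 genes, all of them lower. Their levels by library were -0.64, 0.65 and 1.65 in the ovariectomized and -0.44, -1.18 and -0.04 in the treated libraries, which overlap. Pvalb, the calcium buffer of fast fibres, had 18.4, 33.1 and 59.98 CPM in the ovariectomized libraries and 15.3, 13 and 17.7 CPM in the treated ones (-1.28 ± 0.48). It was the only member of the list to lie wholly lower, against 6.63% of all genes tested. Without ovariectomized replicate 3 the median was -0.59. Smooth muscle and pericyte genes, 10 of 11 lower, had a median of -0.23 (-0.11 with the muscle score); Acta2 was at -0.66 ± 0.23 and Rgs5 at -0.54 ± 0.22, both with overlapping groups.

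**Figure D4:**
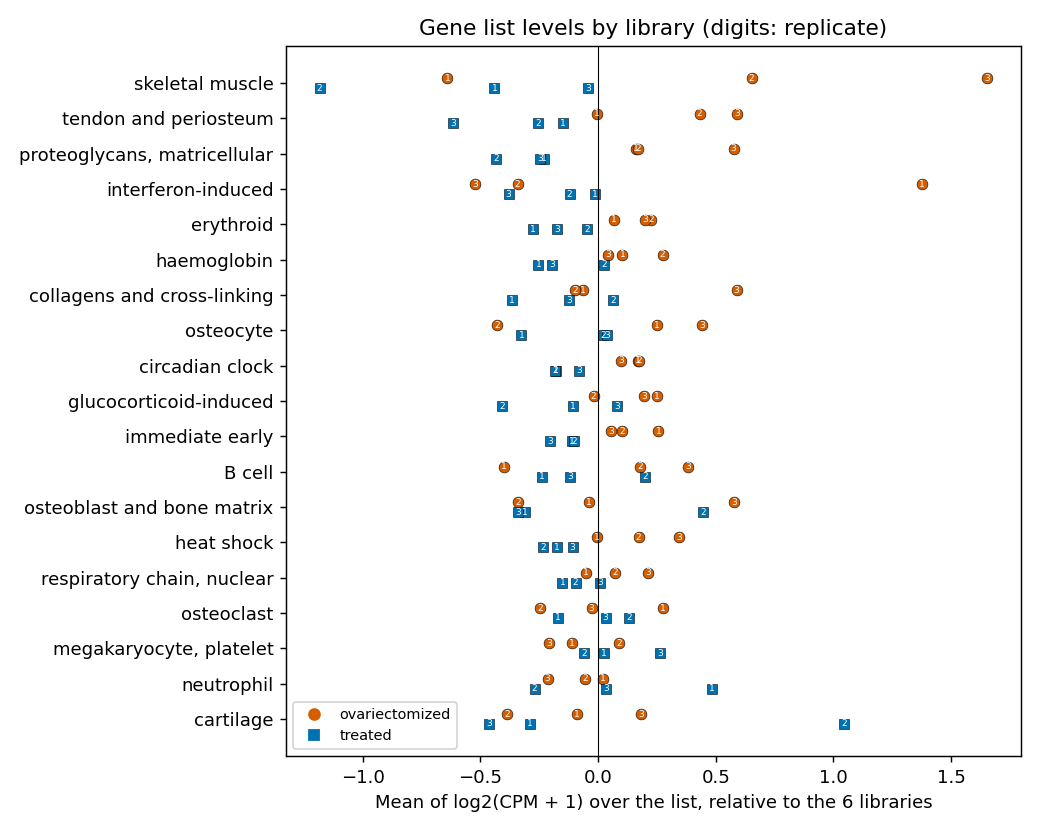
Mean of log2(CPM + 1) over the measured genes of 19 lists, relative to the 6 libraries, for each ovariectomized (circle) and treated (square) library, with its replicate number. The groups do not overlap for the tendon, proteoglycan, erythroid, haemoglobin, clock, immediate early and heat shock lists; single libraries set the range of the muscle, interferon and cartilage lists.

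Genes of bone formation had no difference larger than their spread. Of 19 osteoblast and bone matrix genes 2 were higher and 17 lower (median -0.16), with 0 at an unadjusted p under 0.05 and 0 without overlap. The median was 0.07 when ovariectomized replicate 3 was left out and -0.52 when treated replicate 2 was (-0.0965 with the muscle score), so its direction rested on single libraries. Ibsp, bone sialoprotein, shows the spread: 719, 134 and 392 CPM in the ovariectomized libraries and 210.2, 322 and 303 CPM in the treated ones (-0.58 ± 0.50). Runx2 and Sp7, the factors that make an osteoblast, were at 0.07 ± 0.17 and -0.05 ± 0.34, Alpl, the mineralizing phosphatase, at -0.07 ± 0.15, Col1a1 at -0.27 ± 0.69 and osteocalcin, Bglap, at -0.07 ± 0.73. The standard errors of Bglap and Col1a1 leave room for a 2-fold difference in either direction. Osteocyte genes gave 2 of 9 higher and 7 lower (median -0.28, but 0.06 without ovariectomized replicate 3 and -0.15 with the muscle score). Sost, which encodes sclerostin, was at -0.28 ± 0.51, and Enpp1, which makes the mineral inhibitor pyrophosphate, lay wholly lower with 51.1, 43.3 and 54.2 CPM in the ovariectomized libraries and 41.3, 42.8 and 42.3 CPM in the treated ones (-0.23 ± 0.13).

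Osteoclast genes were split, 8 higher and 6 lower of 14 (median 0.04, -0.11 to 0.20 with any library left out). Acp5, the tartrate-resistant phosphatase, was at 0.04 ± 0.43 and Ctsk at -0.10 ± 0.48. Mmp9, a protease of osteoclasts and also of neutrophils, had 596, 563 and 524 CPM in the ovariectomized libraries and 848, 715 and 639.6 CPM in the treated ones (0.39 ± 0.16), and Car2, carbonic anhydrase of osteoclasts and red cells, 1562, 1688 and 1517 CPM in the ovariectomized libraries and 1106, 1367 and 1264 CPM in the treated ones (-0.35 ± 0.15). Both lay wholly apart, in opposite directions. Tnfrsf11b, osteoprotegerin, was at 0.02 ± 0.50, and the genes for RANKL (Tnfsf11) and the oestrogen receptor (Esr1) were under the filter of 1 FPKM. Of 11 genes of RANKL and CSF1 signalling 8 were higher, with a median of 0.03.

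The growth factor pathways of bone lay near 0 as well. Wnt pathway genes were 8 higher and 14 lower of 22 (median -0.03), and its secreted inhibitor Sfrp1 was at -0.36 ± 0.13. In the BMP and TGF-β list, 12 of 26 were higher (median -0.02). Tgfbr1, the signalling receptor for TGF-β, was the 1 member at an unadjusted p under 0.05, where 2.12% of all genes tested were higher at that p. It had 57, 47.9 and 57.5 CPM in the ovariectomized libraries and 68, 80.2 and 64.7 CPM in the treated ones (0.39 ± 0.11). Insulin-like growth factor genes had a median of -0.05 over 11, and the binding protein gene Igfbp2 ranged from 0 to 2985 counts over the libraries. Of 8 hormone receptor genes Vdr, the vitamin D receptor, had 43, 18.3 and 40.2 CPM in the ovariectomized libraries and 16.9, 22.2 and 23.6 CPM in the treated ones (-0.70 ± 0.36). Signalling components of the PI3K and MAP kinase pathways were 14 higher and 15 lower of 29. Among them Foxo3, a factor that insulin signalling holds out of the nucleus, lay wholly lower with 101, 112 and 116 CPM in the ovariectomized libraries and 91.8, 87.2 and 86.8 CPM in the treated ones (-0.31 ± 0.07), and Mapk9, a JNK kinase, wholly higher with 32.4, 38.7 and 32.7 CPM in the ovariectomized libraries and 45.5, 43.2 and 46.1 CPM in the treated ones (0.38 ± 0.11).

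Cartilage genes were high in 1 treated library. Of 16 measured 11 were higher and 5 lower (median 0.41), with list levels of -0.09, -0.39 and 0.18 in the ovariectomized and -0.29, 1.05 and -0.46 in the treated libraries. Col9a1, a collagen of hyaline cartilage, had 1.5, 1.61 and 3.62 CPM in the ovariectomized libraries and 2.26, 15.8 and 1.5 CPM in the treated ones (1.53 ± 0.96), and Cnmd, chondromodulin, 5.62, 1.39 and 3.48 CPM in the ovariectomized libraries and 4.18, 20.2 and 4.21 CPM in the treated ones (1.45 ± 0.77). Treated replicate 2 alone stood high for both, and without it the median of the list turned to -0.29. Comp, described above, also belongs to this list. It was the only member to lie wholly apart, and it was lower (-0.77). Of all genes tested, 6.63% lay wholly lower.

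Among white cells and platelets, neutrophil genes were mostly higher, 19 of 21 (median 0.20, 0.05 to 0.37 with any library left out and 0.0146 with the muscle score in the fit). Mmp8, the neutrophil collagenase, had 1452, 1360.0 and 1234 CPM in the ovariectomized libraries and 2152, 1584 and 1670.0 CPM in the treated ones (0.42 ± 0.17), wholly higher. Prtn3, proteinase 3 of early granules, had 216, 234 and 188 CPM in the ovariectomized libraries and 422, 217 and 224 CPM in the treated ones (0.44 ± 0.26). Arhgap45 overlaps Prtn3 on the same strand with more counts in every library. For Prtn3 treated replicate 1 alone stood high. That library held the highest list level (0.48, -0.27 and 0.03 in the treated, 0.02, -0.06 and -0.21 in the ovariectomized libraries), and without it the median was 0.05. Megakaryocyte and platelet genes were 18 of 21 higher (median 0.15, but 0.0025 without treated replicate 3), led by F2rl2 with 40.2, 28.3 and 32.7 CPM in the ovariectomized libraries and 65.4, 45.1 and 48.4 CPM in the treated ones. Iqgap2 overlaps F2rl2 on the opposite strand with more counts in every library. B cell genes were 18 of 21 lower (median -0.18), but their median was 0.30 with the muscle score in the fit. Plasma cell genes had a median of 0.03 over 13 and T and NK cell genes 0.11 over 20. The T and NK cell median turned to -0.0809 with the muscle score. Irf4 was at 0.35 ± 0.14 and Klrd1 at 0.92 ± 0.33, both wholly higher. Irf4 was the 1 plasma cell gene to lie wholly higher, and 2 others of that list lay wholly lower. Of all genes tested, 5.75% lay wholly higher and 6.63% wholly lower. Macrophage genes had a median of 0.12 over 19, which turned to -0.08 without ovariectomized replicate 3 and to -0.0722 with the muscle score. In the list of mast cells, basophils and eosinophils (median -0.01 over 17) Ccr3 and Ms4a2, the latter a subunit of the IgE receptor, lay wholly higher, Ccr3 with 22.8, 19.9 and 11.7 CPM in the ovariectomized libraries and 24.8, 28.9 and 30.6 CPM in the treated ones and Ms4a2 with 114, 113 and 69.4 CPM in the ovariectomized libraries and 144, 132 and 122 CPM in the treated ones (0.43 ± 0.24).

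Interferon-induced genes were high in 1 ovariectomized library. All 34 measured were lower in treated femora by the fit (median -0.63), but list levels were 1.38, -0.34 and -0.52 in the ovariectomized and -0.01, -0.12 and -0.38 in the treated libraries. Mx2, an antiviral GTPase, had 92, 8.75 and 10.1 CPM in the ovariectomized libraries and 10.9, 15.2 and 8.29 CPM in the treated ones (-1.69 ± 0.83), and Ifi44 57.6, 15 and 13.7 CPM in the ovariectomized libraries and 14.9, 15.7 and 13.3 CPM in the treated ones (-0.98 ± 0.50). Without ovariectomized replicate 1 the median of the list was 0.29, the opposite direction. Genes of antigen presentation moved with the same library, with a median of -0.12 over 19 and of 0.14 without it (-0.33 with the muscle score). Of 27 genes of NF-κB and inflammation 19 were higher (median 0.09). Wholly higher lay 2 and wholly lower 3, against 5.75% and 6.63% of all genes tested. Besides Il1r1 the chemokine Cxcl1 lay wholly lower with 3.51, 1.89 and 1.68 CPM in the ovariectomized libraries and 1.49, 0.926 and 0.965 CPM in the treated ones (-1.07 ± 0.33).

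**Figure D5:**
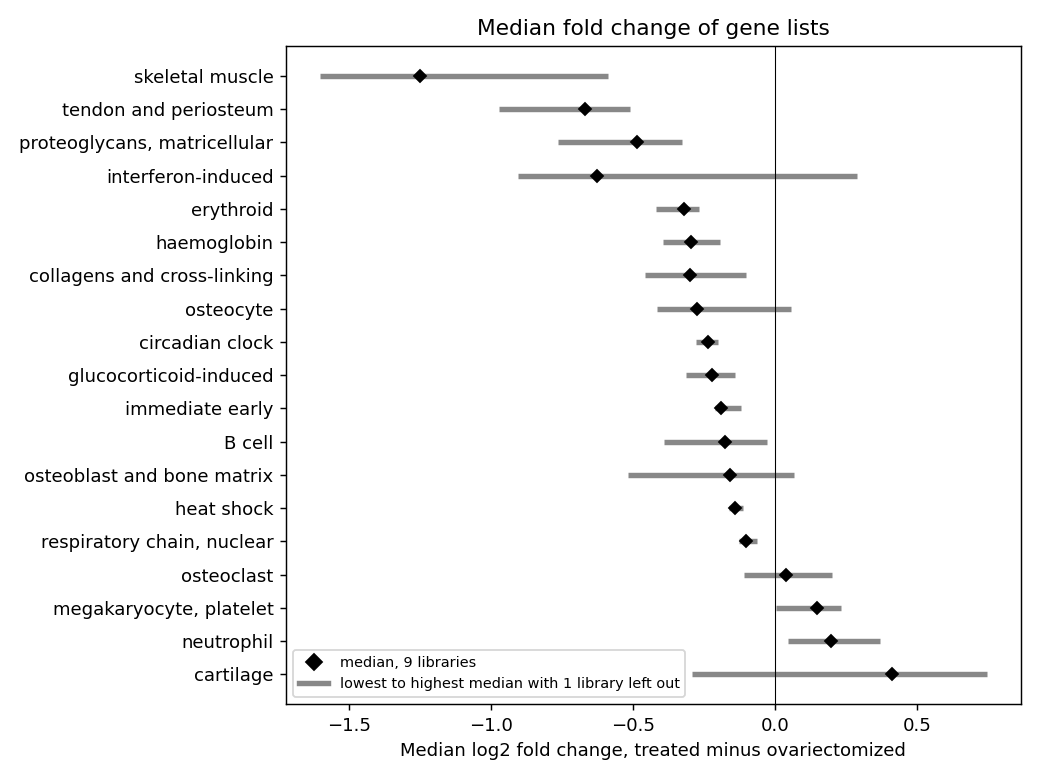
Median edgeR log2 fold change of 19 lists (diamond), treated minus ovariectomized, with the lowest and highest median when 1 of the 9 libraries is left out (bar). The bar crosses 0 for the interferon, osteocyte, osteoblast, osteoclast and cartilage lists and stays narrow for the clock, immediate early, heat shock and erythroid lists.

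Lists of fat and metabolism had small medians. Of 22 adipocyte genes 8 were higher and 14 lower (median -0.09); Fasn, fatty acid synthase, had 461, 457 and 209 CPM in the ovariectomized libraries and 171, 173 and 255 CPM in the treated ones (-0.91 ± 0.34), ovariectomized replicate 3 lying among the treated libraries. Cholesterol synthesis and uptake genes were 16 of 23 higher (median 0.06), with 4 wholly higher and 2 wholly lower. Of all genes tested, 5.75% lay wholly higher and 6.63% wholly lower. Hmgcs1, an early enzyme of the pathway, lay wholly higher at 25.7, 28.6 and 23.2 CPM in the ovariectomized libraries and 32.3, 31.5 and 31.3 CPM in the treated ones (0.29 ± 0.12). Fatty acid oxidation genes had a median of 0.02 over 22. Nuclear genes of the respiratory chain were 38 of 42 lower (median -0.10), with 0 at an unadjusted p under 0.05. Of these genes 8 lay wholly lower, against 6.63% of all genes tested, and 0 wholly higher. Their median was -0.06 without ovariectomized replicate 3 and -0.0308 with the muscle score in the fit. Genes of mitochondrial DNA were 12 of 13 lower (median -0.13, -0.03 without that library and -0.0083 with the muscle score), and their share of counts gave a 2-sided exact permutation p of 0.5. Glycolysis and hypoxia genes were even, 15 higher and 15 lower of 30. Wholly higher lay 3 and wholly lower 4, against 5.75% and 6.63% of all genes. Within them Slc2a3 had 42.2, 33 and 26.6 CPM in the ovariectomized libraries and 63.2, 57.8 and 44.2 CPM in the treated ones and Hif1a, the oxygen-regulated factor, 68, 69.8 and 63 CPM in the ovariectomized libraries and 72.8, 73.4 and 77.3 CPM in the treated ones (0.15 ± 0.06), both wholly higher. Antioxidant genes had a median of 0.02 over 32, with 2 wholly higher and 6 wholly lower, against 5.75% and 6.63% of all genes. Gclm, of glutathione synthesis, had 56.5, 77.5 and 70.8 CPM in the ovariectomized libraries and 47.4, 55.9 and 47.5 CPM in the treated ones (-0.44 ± 0.16). Prdx2, a peroxiredoxin abundant in red cells, had 556, 633 and 608 CPM in the ovariectomized libraries and 416, 508 and 463 CPM in the treated ones (-0.37 ± 0.15).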

How the data were processed

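Per the labels' protocols, poly(A) RNA of rat femur was sequenced in 9 libraries. The deposited table gives, per the file headers, a whole-number count and an FPKM value for each gene and library. The submitters' processing notes name fastp, HISAT2 and StringTie, without versions, as tools of the authors; no source used here names a genome build. The deposited FPKM is scaled for gene length and depth and is 0.0001 where the count is 0. How the counts were made is not stated, and they were treated as read counts.

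Genes whose mean over the 9 libraries reached 1 FPKM entered the tests, in R 4.3.3 with edgeR 4.0.16 (TMM, 1 quasi-likelihood fit over the 9 libraries, contrast treated minus ovariectomized, Benjamini-Hochberg over all genes tested, threshold 0.05). CPM were computed from the counts and TMM factors. DESeq2 1.42.0, limma 3.58.1 on log2(FPKM + 1) or log2(FPKM + 0.1), other scaling, no FPKM filter (at least 10 counts in total) or one of 5 FPKM, the 6 libraries alone, a robust variance, the replicate number as a block, a skeletal muscle score as covariate and each library left out were alternatives. The skeletal muscle score was the mean log2 CPM of the skeletal muscle list in each library. Summing rows of the same product was added after seeing the data. Shares were compared with exact permutation tests in SciPy 1.17.1. Simulated data were used to test the edgeR step.

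No set test was run: 48 lists with 1066 distinct symbols, 922 of them tested and 56 without a row under that name, are described by counts and medians. Genes were named as follows: up to 12 a direction called by edgeR, the open places going to genes with groups that do not overlap, at least 1.5-fold and a mean of at least 2 FPKM, by smallest p; up to 8 a direction called by DESeq2; up to 4 members of each described list of at least 5 by smallest p; and Tnfsf11, Tnfrsf11b, Acp5, Ctsk, Bglap, Runx2, Sp7, Alpl, Col1a1, Sost and Esr1. Placeholder symbols were left out, and where rows shared a symbol the one with the highest FPKM stood for it. Members, lists and this rule were chosen with earlier results of these data known. No pair of replicates agreed within sampling noise.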

Additional observations from a re-analysis of the deposited data

How the results depend on the processing

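Of 122 genes given with a value, 101 kept their sign under every alternative run. Many of the 122 were named for a small p, a DESeq2 call or groups without overlap in these same data. The alternatives refit those data, so a kept sign is no independent support. The count of genes at an adjusted p under 0.05 was 38 with DESeq2, 1 with the 6 libraries alone (Rtn3), 0 to 2 with 1 library left out and 0 with the other alternatives. At an unadjusted p under 0.05, limma gave 529 higher and 260 lower genes on log2(FPKM + 1) and 529 and 237 on log2(FPKM + 0.1), and a filter at 5 FPKM 280 lower genes. With 1 library left out the counts ran from 173 to 390 higher and from 251 to 512 lower. The 2-fold counts were 100 lower with DESeq2, 19 higher and 28 lower with limma on log2(FPKM + 1), 33 lower with the pseudocount of 0.1, 121 higher and 161 lower without a filter, 20 and 26 with a filter at 5 FPKM, 57 higher with the muscle score, and 26 to 65 higher and 55 to 166 lower with 1 library left out. Genes whose groups did not overlap numbered 1392 higher and 546 lower on deposited FPKM, and 1322 to 1723 higher and 1360 to 1958 lower with 1 library left out, which leaves fewer values to separate. The causes of the other shifts were not tested.

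List medians that moved by more than the spread between replicates are given here. With the muscle score they were -0.203 for erythroid, 0.301 for B cell, -0.0809 for T and NK cell, 0.0103 for cell cycle and -0.0442 for NF-κB genes. The skeletal muscle list was at -0.0692, a shift fixed in advance because the score is made from that list. On the FPKM scale with a pseudocount of 1 the median was -0.167 for clock genes. With one of 0.1 it was 0.152 for cholesterol, 0.0570 for autophagy and 0.0430 for PI3K and MAP kinase genes. With a filter at 5 FPKM it was -0.325 for clock and 0.0334 for steroid genes. Leaving out 1 library, medians ranged as follows: RANKL and CSF1 -0.0020 to 0.205, cartilage -0.292 to 0.748, proteoglycans -0.763 to -0.328, tendon and periosteum -0.972 to -0.511, cholesterol 0.0351 to 0.210, interferon -0.907 to 0.288, marrow stroma -0.158 to 0.179, unfolded protein response -0.123 to -0.0072, autophagy -0.0316 to 0.0245 and PI3K and MAP kinase -0.0196 to 0.0592.

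Values that turned were Bglap at 0.109 and 0.110 in limma; Acp5 -0.241, Bglap 0.825, Col1a1 0.669, Nr3c1 -0.0062, Runx2 -0.0364 and Tnfrsf11b -0.438 with the muscle score; and, rows summed, Pfkfb4 0.0885 and Rpl38 0.0383. With 1 library left out, genes that turned had ranges of Myc -0.0138 to 0.175, Klf6 -0.232 to 0.0014, Dusp6 -0.125 to 0.0581, Arntl -0.0643 to 0.167, Cry1 -0.120 to 0.254, Nr3c1 -0.0123 to 0.0248, Ibsp -0.990 to 0.0804, Runx2 -0.0469 to 0.171, Sp7 -0.431 to 0.124, Alpl -0.141 to 0.0152, Col1a1 -1.023 to 0.623, Bglap -0.836 to 0.973, Sost -1.078 to 0.0177, Acp5 -0.390 to 0.465, Ctsk -0.436 to 0.355, Tnfrsf11b -0.589 to 0.316, Col9a1 -0.258 to 2.065, Mx2 -2.147 to 0.280 and Ifi44 -1.312 to 0.0288.

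Same-numbered ovariectomized and treated libraries did not deviate together (correlations of 0.004, -0.072 and 0.092). For control and treated libraries the values were 0.076, -0.124 and -0.017. For control and ovariectomized libraries they were 0.255, 0.153 and 0.156, where other-numbered pairs of these groups ran from -0.258 to 0.12. Whether the numbers mark a pairing or a batch cannot be settled from these correlations. With the replicate number as a block 0 genes passed in edgeR (smallest adjusted p 0.0667), 20 were higher at 2-fold, and Bglap was at 0.251 and Ctsk at 0.0109. The 6 libraries held 54992823 to 64024987 counts, and genes below 1 FPKM were not tested.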

Other observations

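Lists not described above held few differences. Of 13 matrix proteases and their inhibitors 5 had higher and 8 lower estimates (median log2 fold change -0.10). Wholly higher lay 2 and wholly lower 1, against 5.75% and 6.63% of all genes tested. Timp4, an inhibitor of metalloproteinases, lay wholly lower with 4.09, 4.16 and 5.88 CPM in the ovariectomized libraries and 2.17, 2.6 and 3.48 CPM in the treated ones (-0.78 ± 0.27, SE). Marrow stroma genes had a median of -0.05 over 17, and Il7, the cytokine that stromal cells give to lymphoid precursors, lay wholly higher with 2.36, 2.18 and 2.05 CPM in the ovariectomized libraries and 2.62, 3.23 and 4.27 CPM in the treated ones (0.62 ± 0.24). Endothelial genes were 11 higher and 10 lower of 21. Genes of autophagy had a median of 0.02 over 24, with Atg12, a conjugation factor of the autophagosome, at 0.19 ± 0.07. Steroid and retinoid enzymes had a median of -0.09 over 17; Hsd17b4 was at 0.21 ± 0.08 and Cyp26b1, which degrades retinoic acid, at -0.68 ± 0.29. Ribosomal protein genes were 21 of 32 higher with a median of 0.01, and those of nerve and Schwann cells (5) had a median of -0.08. Of 8 histone genes, with a median of 0.05, Hist2h3c2 was at 1.38 ± 0.34, a value left uncertain by near-identical copies that can share its reads. edgeR passed 0 of these genes after adjustment over all genes tested.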
